A study of Brachypodium distachyon with 7 samples.

Results

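In seedlings of the grass Brachypodium distachyon, 1597 H3K27me3 genes were absent from the H3K4me3 tables and had no other within 10 in locus number. They are called isolated members here. H3K27me3 is trimethylation of lysine 27 of histone H3, and H3K4me3 that of lysine 4. Members were chosen from the tables' gene identifiers: a gene listed for H3K27me3 and not for H3K4me3, with no other H3K27me3 gene on its chromosome within 10 in locus number. A Bradi identifier gives the chromosome before the letter g and a locus number after it. Locus numbers follow gene order, mostly in steps of 10, and are not base positions. Since steps vary, an H3K27me3 gene at 12 or 13 from a member may still be the next gene in order. The members made up 24.4% of the 6554 H3K27me3 genes, and the series listed 16434 genes in either mark. A further 3085 H3K27me3-only genes lay in runs, with an H3K27me3 gene within 10, and 1872 genes were listed for both marks. Presence in the tables thus chose the members, and levels set beside those of the other classes are a description without a test.

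H3K27me3 is written by Polycomb repressive complex 2 and marks genes kept silent. In Arabidopsis thaliana the mark typically covers the transcribed regions of single genes, and long cold adds it to the flowering repressor FLC. In temperate grasses the main target of long cold is VRN1, a promoter of flowering, which loses the mark as it is induced. H3K4me3 sits at the start of active genes, so genes with H3K27me3 alone are generally taken as silent in most cells of a tissue.

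The mark was profiled by chromatin immunoprecipitation and sequencing (ChIP-seq) in pooled aerial parts of seedlings of line ABR1, grown at 24 °C with 16 h light and 8 h dark. V0 seedlings had 17 days of growth and no cold. V30 seedlings had 14 days of growth and then 30 days at 4 °C. V30N seedlings had 7 days of growth, 30 days at 4 °C and 7 days back in warmth. Age at harvest thus set V0 apart from V30 and V30N, which had equal total days but differed in growth before the cold. These differences cannot be told apart from the cold itself or from the return to warmth. H3K27me3 had 1 library per condition, so its differences have no replicate check and no p-value. The series also held H3K4me3, with 2 libraries of V0, the second named a biological replication in the series' design text, and 1 each of V30 and V30N. The tables give a signal value per gene whose normalization is not given in the sources used here, and the depth behind it is unknown. The tissue cannot be checked against cell type markers in these tables, and a change of the mark in all cells cannot be told apart from a change in the share of cells that carry it. Many signal values below 45 lay on regular steps that differed between libraries, with 36.1% on the coarse step in V0, 47.2% in V30 and 36.6% in V30N. The coarse step was 0.595 in V0 and 0.670 in V30N, each divided into 48 finer steps, and 0.653 in V30, divided into 34. This difference in value spacing and the cold of V30 cannot be told apart.

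In V0 the lowest isolated member had an H3K27me3 signal of 27.3, the median member 111 and the highest 1261, where the highest of all H3K27me3 genes had 3465. The median was 108 in V30 and 110 in V30N, with upper quartiles of 216, 221 and 217 in V0, V30 and V30N. In each library the members' median lay between that of the genes in runs and that of the genes with both marks. Genes in runs had medians of 156, 154 and 156 in V0, V30 and V30N, and genes with both marks had 77.4, 69.2 and 73.8. All H3K27me3 genes were split at the quartiles of mean level into 4 level groups of equal size. Of the members, 26.7% were in group 1, the lowest, 25.7% and 25.3% in groups 2 and 3, and 22.3% in group 4. Of the genes in runs 33.5% were in group 4, and of those with both marks 13.2%. The levels are not known to be scaled to gene length, so they are compared between classes only as deposited.

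**Figure D1:**
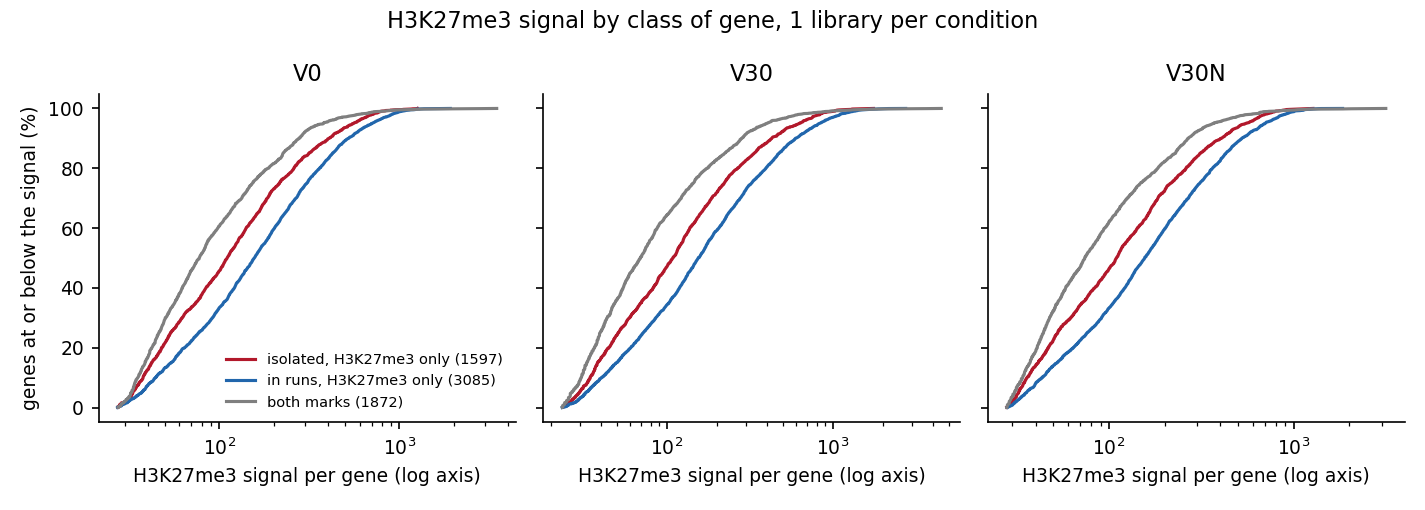
Share of genes (percent, vertical axis) at or below each H3K27me3 signal (log axis) in the 3 libraries, for isolated members, H3K27me3-only genes in runs and genes with both marks. The curve of the isolated members lies between the others over most of the range in each library, with a V0 median of 111 against 156 in runs and 77.4 with both marks.

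The members with the highest mean level were Bradi4g09970 and Bradi3g36180. Bradi4g09970 had a signal of 1257 in V0, 1759 in V30 and 1186 in V30N, and Bradi3g36180 had 1161, 1621 and 1133. In both, V30 was the highest library and V0 and V30N were close to each other. The V30 minus V0 difference was 0.48 and 0.47 as deposited, on the log2 scale defined with the comparisons, and 0.11 and 0.12 once a trend of the differences with level was removed. The lowest members, Bradi1g05850 and Bradi4g40627, had 27.3 and 29.8 in V0, 24.8 and 24.6 in V30, and 29.4 and 28.2 in V30N. These values are near the lowest in the tables, and as deposited V30 was the lowest library in both. With the trend removed, their V30 minus V0 differences were 0.04 and -0.03. The reference gene table used here holds no Bradi identifier, so the files do not pair these genes with names or functions.

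Of 12 flowering loci listed from published assignments, 8 were in the H3K27me3 tables and 1 was an isolated member. It is FT1 (Bradi1g48830), a florigen gene, whose relatives encode a mobile signal that moves from leaf to shoot tip to start flowering. FT1 had an H3K27me3 signal of 565 in V0, 628 in V30 and 604 in V30N, above 95.2%, 94.9% and 95.9% of the members. Its log2 differences were 0.15 for V30 against V0 and 0.09 for V30N against V0, and the V30 value turned to -0.05 with the trend with level removed. FT1 was thus among the most strongly marked members in each condition and differed little between them. Its nearest H3K27me3 gene, 20 locus numbers away, carried both marks and was low, with 31.5, 30.7 and 41.7. An H3K4me3 gene lay 8 locus numbers from FT1, with H3K4me3 signal of 45.4 and 38.4 in the V0 libraries, 34.8 in V30 and 45.02 in V30N.

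Of 15 cold-response loci, from the ranges of CBF genes (activators of cold-responsive genes) and IRI genes (ice recrystallization inhibition proteins), 9 were in the H3K27me3 tables and 1 was an isolated member. This locus of the CBF range, Bradi4g35640, had 28.0 in V0, 23.5 in V30 and 34.8 in V30N. Its V30 value was the lowest among the members, a value that other members shared, and 8.27% of members were below it in V30N. Of 3 clock loci and 4 reference loci, 0 were in the H3K27me3 tables.

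The first comparison asks where H3K27me3 differed at the end of the cold. Values were compared as log2(signal + 27.3), a scale that understates the change of low genes, and a member was counted when it differed by at least 1.5-fold on it. By that rule 18 members were lower in V30 than in V0, or 1.13%, where 1.83% of all 6554 H3K27me3 genes were. Higher in V30 were 7 members, or 0.438%, where 0.610% of all genes were. As deposited, both shares of the members were thus under those of all genes. Of genes in runs 1.23% were lower and 0.843% higher, and of genes with both marks 3.42% and 0.374%. The lower share of the members was therefore close to that of genes in runs. The higher and lower members numbered 11 and 15 with libraries centred, 12 and 12 with quantile normalization and 11 and 13 with a trend with level removed. The lower share stayed under that of all genes in these 3 settings. The higher share was under it with centring, at 0.689% against 0.977%, and above it with quantile normalization, at 0.751% against 0.565%, and with the trend removed, at 0.689% against 0.519%. At 2-fold, 2 members were lower and 2 higher, against 0.336% and 0.0610% of all genes. The median difference was -0.00 over the members and -0.01 over all genes, and the middle 95% of members ran from -0.49 to 0.41. Members above and below 0 were about equal in number, at 798 and 799. With a pseudocount of 2.73 in place of 27.3, 68 members (4.26%) were lower and 19 (1.19%) higher, where 5.23% and 1.40% of all genes were.

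The largest lower values in V30 were at Bradi2g08620 and Bradi2g27140. Bradi2g08620 had 151 in V0, 52.2 in V30 and 153 in V30N, a log2 difference of -1.16 in V30 and 0.02 in V30N. V30 alone was low, and V0 and V30N were nearly equal. Bradi2g27140 had 231 in V0, 98.4 in V30 and 151 in V30N, with differences from V0 of -1.04 and -0.53, so V30N lay between the other libraries. At neither gene did the nearest H3K27me3 gene show a difference of this size. It lay 50 locus numbers from Bradi2g08620, with 329, 347 and 360 in V0, V30 and V30N, and 20 from Bradi2g27140, with 36.3, 37.9 and 34.8. An H3K4me3 gene 10 from Bradi2g27140 had H3K4me3 of 38.4 and 44.4 in V0. Its V30 value, 44.2, lay between these, and its V30N value, 36.0, below both.

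The largest higher values in V30 were at Bradi3g54830 and Bradi4g22000. Bradi3g54830 had 35.7 in V0, 128 in V30 and 34.7 in V30N, with a V30 difference of 1.30. Bradi4g22000 had 56.5 in V0, 148 in V30 and 46.9 in V30N, with a difference of 1.07. In both the V30 library stood apart, and in V0 and V30N the genes were low, above 7.76% and 26.5% of members in V0. The nearest H3K27me3 gene lay 13 locus numbers from Bradi3g54830 and had 256, 266 and 264. The one 30 from Bradi4g22000 had 62.4, 49.0 and 40.6, and was thus not higher in V30. An H3K4me3 gene 10 from Bradi4g22000 had H3K4me3 of 45.8 and 40.6 in the V0 libraries, 45.6 in V30 and 42.9 in V30N, so its V30 value lay within the range of the V0 libraries.

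Over all 18 members lower in V30, V0 ran from 52.2 to 529 with a median of 103, V30 from 24.8 to 269 with a median of 48.0, and V30N from 34.6 to 354 with a median of 74.3. In V30N, 16 of the 18 lay between their V0 and V30 values and 2 at or above V0, and none of the 18 was lower than V0 by 1.5-fold. Their V30N differences from V0 ran from -0.55 to 0.02, with a median of -0.30. Of the 7 members higher in V30, 5 lay between their V0 and V30 values in V30N and 2 at or below V0, and none was higher than V0 by 1.5-fold. These members were picked for their V0 and V30 values, from which the V30N values are then read, so the course is a description. The same counts were not made for all H3K27me3 genes past 1.5-fold in V30. Only 0.244% of all genes were lower and 0.107% higher in V30N than in V0, so finding none among these few says little. The 18 lower members numbered 2, 8, 1, 6 and 1 on chromosomes 1 to 5. These chromosomes hold 27.6%, 22.5%, 21.9%, 17.6% and 10.4% of all members. The same split was not made for all lower H3K27me3 genes, so nothing is read from these few counts.

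**Figure D2:**
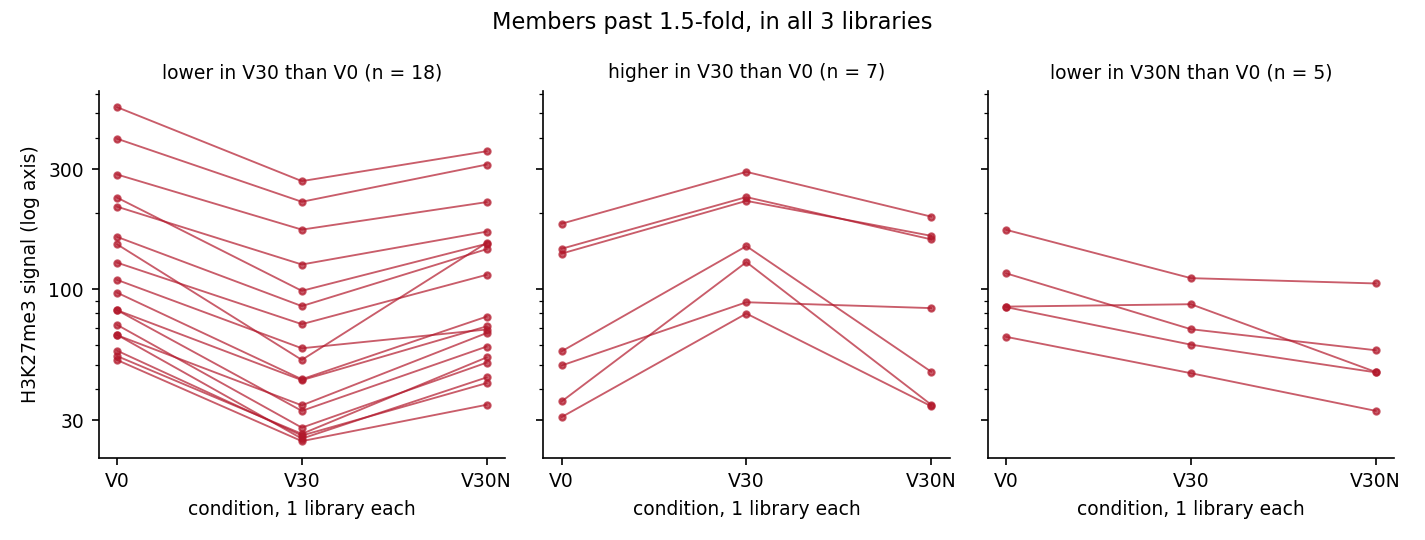
H3K27me3 signal (log axis) in V0, V30 and V30N, 1 library each, of members past 1.5-fold; each line is a gene. Of the 18 members lower in V30, 16 lie between their V0 and V30 values in V30N, as do 5 of the 7 higher in V30. The same was not counted for all H3K27me3 genes. The 5 members lower in V30N have their lowest value there, which their selection fixes because none was 1.5-fold lower in V30.

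The difference between V30 and V0 went with level. From level group 1 to 4, the members' median difference was -0.06, -0.05, -0.00 and 0.12. Genes in runs followed the same order, with -0.08, -0.05, 0.00 and 0.17, and genes with both marks had -0.13, -0.11, -0.04 and 0.11. The members' medians for V30N against V0 ran from -0.02 in group 1 to 0.02 in group 4. Of the 18 members lower in V30, 6, 6, 4 and 2 were in groups 1 to 4. Lower genes in runs numbered 7, 12, 15 and 4 in these groups, and those with both marks 12, 30, 20 and 2. With this trend removed by lowess, 0.689% of members were higher in V30, in place of 0.438%, while the share of all genes went from 0.610% to 0.519%. Whether value spacing had a part in this trend was not tested.

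**Figure D3:**
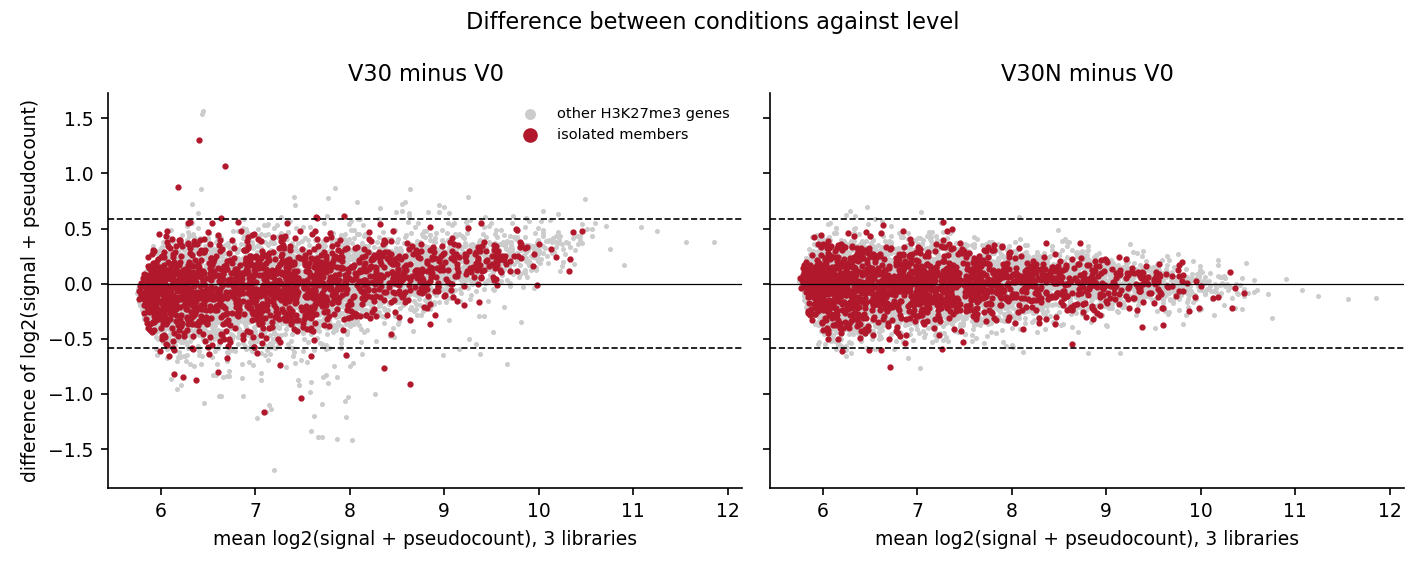
Difference of log2(signal + pseudocount) from V0 for V30 (left) and V30N (right) against mean log2 level over the 3 libraries; dashed lines mark 1.5-fold. Members spread more widely in V30, where 18 lie below and 7 above the lines, than in V30N, where 5 lie below. All H3K27me3 genes do so too, and V30 differences tilt upward with level.

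The second comparison asks which differences from V0 were present after the return to warmth. In V30N, 5 members were lower than in V0 by 1.5-fold, or 0.313%, where 0.244% of all genes were, and 0 members were higher, where 0.107% of all genes were. No gene of the 6554 passed 2-fold. The SD over members was 0.18, against 0.24 for V30 against V0. Over all genes these were 0.18 and 0.25, so the wider spread in V30 was not particular to the members. Of the 5, none was also lower by 1.5-fold in V30, where 1.83% of all genes were. Since the 5 were picked as lower in V30N, their lowest value was then necessarily in V30N. The number of lower members was 3 with libraries centred (0.188%, against 0.153% of all genes), and 1 with the trend with level removed or with the larger pseudocount of 32.0 (0.0626%, against 0.122% in each). With a pseudocount of 2.73, 25 were lower (1.57%, against 1.83%) and 11 higher (0.689%, against 0.809%). The members' share thus lay above or below that of all genes depending on the setting.

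Bradi2g37340 was the lowest. It had 115 in V0, 69.2 in V30 and 57.1 in V30N, with differences of -0.57 and -0.76 from V0, and so was low in both libraries of plants that had been in the cold. The nearest H3K27me3 gene, 30 locus numbers away and with both marks, had 153, 131 and 105, in the same order of libraries. Bradi4g24880 had 85.1 in V0, 87.0 in V30 and 46.8 in V30N, so V30N alone was low, at -0.60. Its nearest H3K27me3 gene, at 57, had 169, 164 and 167. The difference at Bradi4g24880 is close to the threshold and was short of it, at -0.57 to -0.58, with the larger pseudocount, with quantile normalization and with the trend with level removed.

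The highest members in V30N against V0, both short of 1.5-fold, were Bradi5g02900 and Bradi1g07037. Bradi5g02900 had 99.0 in V0, 132 in V30 and 159 in V30N, with a V30N difference of 0.56. Bradi1g07037 had 49.6, 88.6 and 84.0, with differences of 0.59 in V30 and 0.53 in V30N. V0 was the lowest library in both. The gene nearest to Bradi1g07037, 13 away and with both marks, had 60.1, 73.0 and 81.0 and was also lowest in V0. The H3K4me3 gene 10 from Bradi5g02900 had H3K4me3 of 57.0 and 67.6 in the V0 libraries, 50.1 in V30 and 59.8 in V30N.

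The third comparison, V30N against V30, shares its libraries with the others. It counted 10 members higher in V30N, or 0.626%, and 12 lower, or 0.751%, where 1.16% and 0.946% of all genes were. With a pseudocount of 2.73 these were 65 and 32 members, or 4.07% and 2.00%, where 4.53% and 1.88% of all genes were. They were 8 and 16 with libraries centred, 4 and 13 with quantile normalization and 6 and 12 with the trend with level removed. In these settings the higher share stayed under that of all genes, at 0.501% against 1.007%, 0.250% against 0.778% and 0.376% against 0.915%. The lower share was under that of all genes with centring, at 1.002% against 1.144%. It was above with quantile normalization, at 0.814% against 0.687%, and with the trend removed, at 0.751% against 0.671%. The largest differences were those of the first comparison in reverse: Bradi3g54830 at -1.33, Bradi4g22000 at -1.24 and Bradi2g08620 at 1.18. After Bradi2g08620, the highest upward difference above level group 1 was at Bradi5g17657, which had 58.2 in V0, 39.8 in V30 and 79.4 in V30N, a difference of 0.67, with V30 the lowest library and V30N above V0.

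Each chromosome was split by locus number into 10 equal bins. Of the 16434 genes listed in either mark, bin 1 held 1691, bin 5 the fewest, 1283, and bin 10 the most, 1921. A bin, taken over all 5 chromosomes, held between 8.45% and 12.02% of the members, between 6.81% and 13.4% of the genes in runs and between 5.56% and 14.5% of those with both marks. Single chromosomes differed in this, with 35 to 48 members per bin on chromosome 1 and 2 to 26 on chromosome 5. The end bins, 1 and 10, together held 21.04% of the members, 23.7% of the genes in runs and 26.3% of the genes with both marks. The isolated share of H3K27me3-only genes was lowest in bin 3, at 24.7%, where 412 genes lay in runs, and highest in bin 5, at 40.0%, where 210 did. The rule ties these shares to how densely H3K27me3 genes are packed, and no test was run on them.

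By chromosome, the members numbered 441, 360, 349, 281 and 166 on chromosomes 1 to 5, between 5.59 and 6.19 per 1000 locus numbers. They were 41.3% of the H3K27me3-only genes on chromosome 5 and between 31.5% and 34.8% on the others. Chromosome 5 also had the lowest density of H3K27me3 genes, 21.3 per 1000 locus numbers, and chromosome 4, with the lowest isolated share, had the highest, 26.2. Levels differed little between chromosomes, with V0 medians of the members from 106 on chromosome 3 to 118 on chromosome 5. Median differences of V30 from V0 ran from -0.02 on chromosome 2 to 0.03 on chromosome 4.

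**Figure D4:**
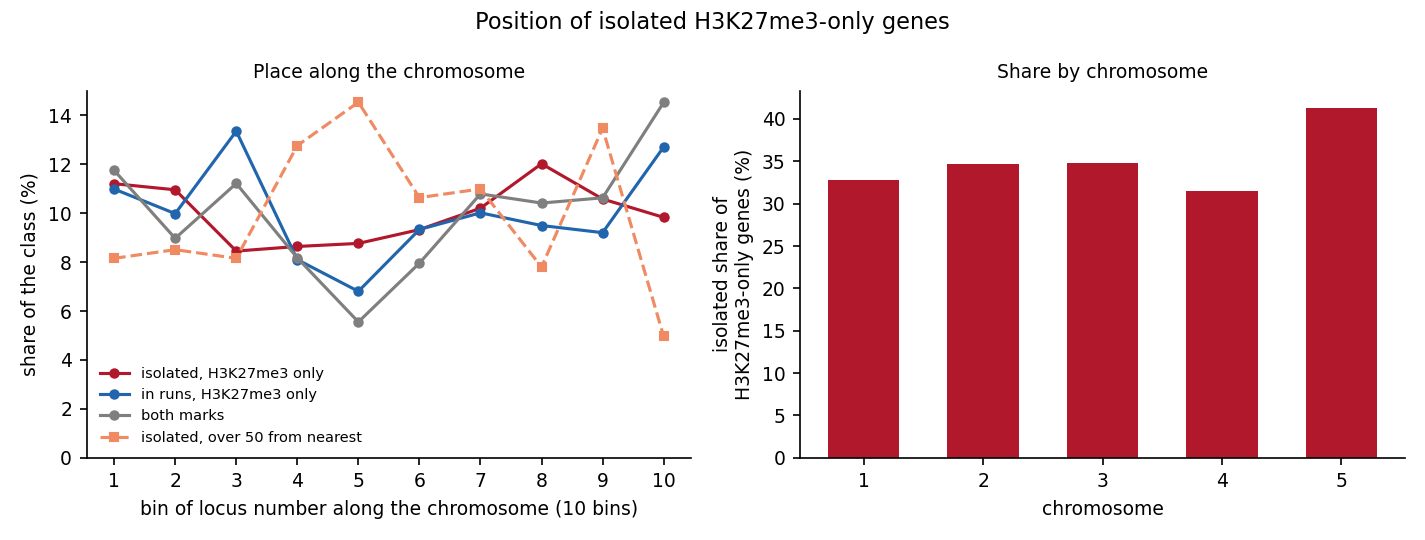
Left, share of each class (percent) in each of 10 equal bins of locus number, all 5 chromosomes together, with the 282 members over 50 from another H3K27me3 gene as a dashed line; right, isolated members as a percent of the H3K27me3-only genes of each chromosome. Members stay between 8.45% and 12.02% per bin, and their share is highest on chromosome 5, at 41.3%.

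The members farthest from any other H3K27me3 gene were Bradi1g40464 and Bradi1g41115, both in the middle of chromosome 1, at 51.3% and 52.1% of its locus numbers. The nearest H3K27me3 gene was 651 locus numbers from Bradi1g40464 and 595 from Bradi1g41115. Bradi1g40464 had a signal of 206 in V0, 196 in V30 and 213 in V30N, and Bradi1g41115 had 167, 206 and 169. Both were above the members' median in each library. Of the 282 members more than 50 locus numbers from another H3K27me3 gene, 14.5% were in bin 5 and 4.96% in bin 10. The end bins together held 13.1% of them. Bin 5 also had the fewest genes listed in either mark, 1283, and bin 10 the most, 1921.

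The distance to the nearest H3K27me3 gene had a median of 30 locus numbers over the members. At the rule's edge, the 186 members with a neighbour at 12 or 13 had V0, V30 and V30N medians of 135, 136 and 136, and the 2598 H3K27me3-only genes just outside, with a neighbour at 10, had 155, 153 and 156. The 418 members with a neighbour at 20 had 115, 114 and 116, those at 21 to 30 had 105, 101 and 106, those at 31 to 50 had 102, 99.3 and 102, and those over 50 had 112, 102 and 107. Level was thus lower with distance up to 50 and did not continue downward beyond it. Of the members, 263 (16.5%) had a locus number not ending in 0, against 8.98% of genes in runs and 13.5% of genes with both marks. Such a number can put the next gene past the window of 10, so the rule can raise this share. The V0 median of these 263 members, 111, was like that of the rest, 110.

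Members were also compared with their nearest H3K27me3 gene. Across the 1597 members, Pearson's r with the nearest gene was 0.08 for mean log2 level, 0.13 for V30 minus V0 and 0.10 for V30N minus V0. Across the 3085 genes in runs it was 0.48, 0.53 and 0.35. Among members, r for V30 minus V0 was 0.45 at 12 or 13, 0.15 at 20, 0.11 at 21 to 30, 0.07 at 31 to 50 and -0.05 beyond 50. All genes share the same 3 libraries, V30 minus V0 goes with level, and pairs of neighbours enter from both sides, so these values describe the tables and carry no p.

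**Figure D5:**
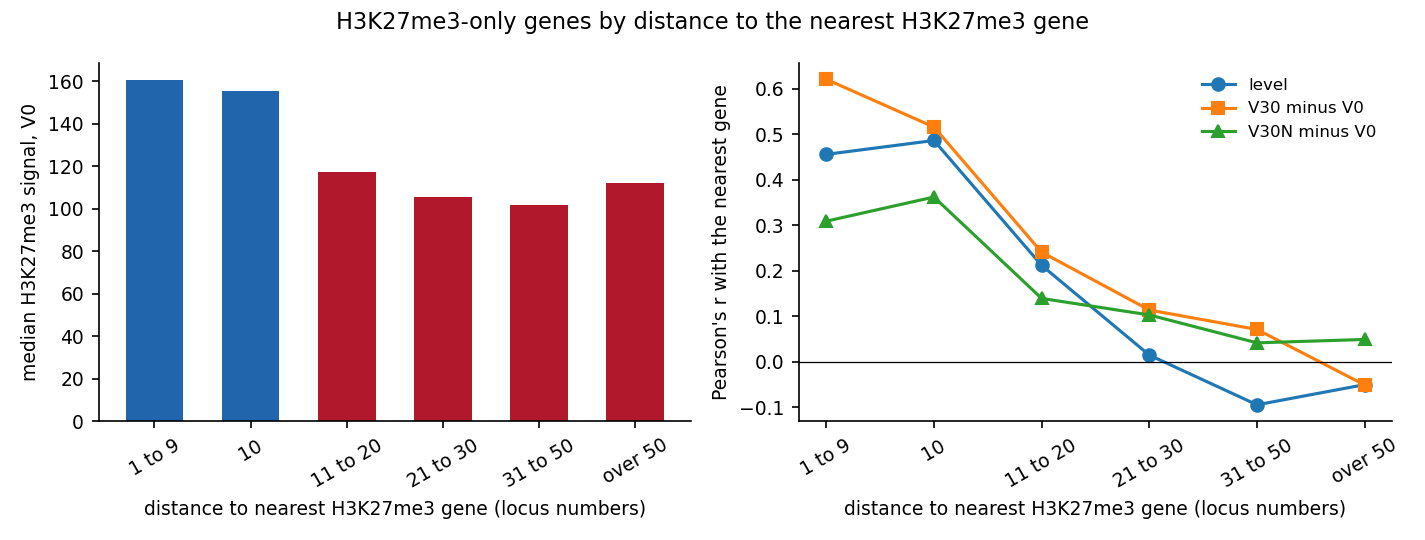
H3K27me3-only genes by distance in locus numbers to the nearest H3K27me3 gene, up to 10 in runs and above 10 isolated. Left, median V0 signal, 155 at a distance of 10 and 102 at 31 to 50; right, Pearson's r with the nearest gene, which for V30 minus V0 goes from 0.62 at 1 to 9 to -0.05 beyond 50.

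The rule did not use H3K4me3 signal at neighbouring genes, but it left out any neighbour with H3K27me3. Which H3K4me3 genes can lie next to a member is thus limited by the rule. The share of members with such a gene was not compared with that of other genes. An H3K4me3 gene lay within 10 locus numbers of 1002 members, or 62.7%, on both sides for 244 and on 1 side for 758. Members without one had a median H3K27me3 of 107 in V0, those with one on 1 side 112 and those with one on both sides 123, in V30 101, 112 and 115, and in V30N 102, 112 and 118. In each library the members flanked on both sides thus had the highest median, by a margin well inside the members' quartiles, and no test was run. Median differences of V30 from V0 were 0.03, -0.01 and -0.00.

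By the rule these neighbours all had H3K4me3 alone, and they were 1219 of the 9880 such genes. Their median H3K4me3 was 41.7 and 54.5 in the V0 libraries, 43.8 in V30 and 53.4 in V30N, against 43.7, 56.2, 44.9 and 54.2 for the other H3K4me3-only genes. The gap between the V0 libraries was wider than any between neighbours and other genes. Compared as log2(signal + 9.41) with the mean of the V0 libraries, 34 neighbours (2.79%) were higher in V30 and 84 (6.89%) lower by 1.5-fold, where 2.19% and 7.60% of all 11752 H3K4me3 genes were. In V30N, 34 were higher (2.79%) and 7 lower (0.574%), where 2.46% and 0.749% of all genes were. These shares rest on which V0 library is used: against library 2 alone 1.56% were higher and 14.4% lower in V30, where 1.44% and 15.2% of all genes were, and against library 1 alone 9.93% and 4.51%, where 8.46% and 5.51% of all genes were. In V30N, 0.410% were higher against library 2 and 14.5% against library 1, where 0.400% and 13.1% of all genes were. Lower in V30N were 0.984% against either, where 1.115% and 1.004% of all genes were. Many H3K4me3 genes also share exactly 1 value in a library, 253 of the neighbours among them. Without those genes, 8 neighbours (0.828%) were higher and 19 (1.97%) lower in V30, where 0.890% and 2.07% of all such genes were, and 3 (0.311%) were higher and 2 (0.207%) lower in V30N, where 0.193% and 0.0644% were.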

How the data were processed

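Per the file headers, each deposited table held a gene identifier and a signal value per gene; the authors' normalization, region calling, input correction, annotation and build are not given in the sources used here. Bowtie2 2.1.0 is named in the submitters' processing notes. No H3K27me3 value was 0. Isolation was judged from locus numbers, with a window of 10. Differences are of log2(signal + pseudocount), with a pseudocount set at percentile 1 of each mark's own values and libraries as deposited. The counts at 1.5-fold and 2-fold are by size; no test was run, since H3K27me3 had 1 library per condition. H3K4me3 of neighbouring genes was counted in the same way, with V0 as the mean of its libraries on the log2 scale, also without a test. The isolation rule and the size counts were tested on simulated data.

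Genes named were the 2 members with the largest difference in each direction per comparison, leaving out genes in the lowest level group, the 2 highest and 2 lowest in level, the 2 farthest from another H3K27me3 gene, and members among the listed loci. Members and lists were chosen with earlier results of these data known. Alternatives covered the pseudocount, scaling, lowess (fraction 0.3), a level filter, the fold, the window and each V0 library of H3K4me3. Python 3.11.15, numpy 2.4.6, pandas 2.3.3 and statsmodels 0.14.6 were used.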

Additional observations from a re-analysis of the deposited data

How the results depend on the processing

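The median differences of the members in the 3 comparisons moved by less than 0.1 (log2) under each alternative that gave one, whereas the counts by size, which hold few genes, did not stay within 1.5 times under many. The share of all genes under the same setting follows in parentheses. With a pseudocount of 2.73, 1.19% of members were higher and 4.26% lower in V30 than in V0 (1.40% and 5.23%), 0.689% and 1.57% (0.809% and 1.83%) in V30N against V0, and 4.07% and 2.00% (4.53% and 1.88%) in V30N against V30. With the pseudocount at percentile 5, 0.0626% (0.122%) were lower in V30N than in V0 and 0.313% (0.824%) higher in V30N than in V30. Median centring gave 0.689% (0.977%) higher in V30 than in V0 and 0.188% (0.153%) lower in V30N than in V0. Quantile normalization gave 0.751% (0.565%) and 0.188% (0.183%) for these, and 0.250% (0.778%) higher in V30N than in V30. With the trend with level removed they were 0.689% (0.519%), 0.0626% (0.122%) and 0.376% (0.915%). At 2-fold, 0.125% (0.0610%) were higher and 0.125% (0.336%) lower in V30 than in V0, 0 (0) lower in V30N than in V0, and 0.0626% (0.122%) higher and 0.125% (0.0610%) lower in V30N than in V30. A window of 50 left 282 members, of which 1.77% (1.83%) were lower in V30 and 0.709% (0.244%) in V30N than in V0, and 13.1% (23.8%) in the end bins. A window of 20 left 916, with a median V30 level of 101. Judging isolation among H3K27me3-only genes alone gave 2243, of which 0.0446% (0.107%) were higher in V30N than in V0. Without the lowest 25% of genes, the median levels were 156, 152 and 159, since that filter takes out low genes. For the other alternatives the cause was not tested. All 12 named differences past 1.5-fold kept their sign in the 60 values under other pseudocounts and scalings and with the trend removed, of which 4 were short of 1.5-fold. The genes with the largest differences were picked, so this says little.

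For H3K4me3 next to the members, without 1 or the other V0 library the share higher ranged from 1.56% to 9.93% and that lower from 4.51% to 14.4% in V30, with medians from -0.20 to 0.033. In V30N the shares ranged from 0.410% to 14.5% higher and were 0.984% lower, with medians from -0.033 to 0.21. No paired analysis was possible because the groups share fewer than 2 replicate numbers. With 1 library per condition and unknown depth, no H3K27me3 difference has an error.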
